A study of Mus musculus with 7 samples.

Results

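The genes described here are 40 genes of glycolysis and the hypoxia response, followed in eosinophils sorted from mouse lung. They were listed by gene symbol, and a member was measured where the array annotation gave that symbol to a probe set, which held for 39 of the 40 among 18214 genes in all; Vhl was not analysed here. A symbol carried by several probe sets was represented by the one whose mean over the 7 libraries was highest. The study asked how the expression profile of lung eosinophils differs after allergen challenge. All animals were of the inbred strain BALB/c, and the cells were sorted by flow cytometry from lungs challenged either with saline, which gave 4 libraries, or with OVA, the egg white protein ovalbumin, used here as the allergen, which gave 3 libraries. Age, sex, number of animals per library and the times of sensitisation and challenge are not given in the sources used here. Since nothing in the labels ties each library to an animal of its own, the p-values below reflect the spread among these libraries alone, which may be technical.

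Glycolysis splits glucose into pyruvate in the cytosol and yields ATP without oxygen. Its steps are catalysed by families of related enzymes, and the hexokinase and phosphofructokinase steps are the main points of control. When oxygen is scarce, the prolyl hydroxylases encoded by the Egln genes no longer mark the transcription factor subunit HIF-1 alpha (Hif1a) for destruction. HIF-1 alpha then pairs with Arnt and raises the transcription of many glycolytic genes, of genes of mitophagy and collagen hydroxylation, and of some Egln genes themselves. In immune cells the same factor also accumulates in normal oxygen after inflammatory stimulation. Eosinophils are granulocytes of allergic inflammation and are known to use glycolysis when activated.

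The promoters of the members are shown first because the core of the hypoxia response element can be read in them. The core was searched as ACGTG or GCGTG on both strands in the 250 bases before each annotated start, in RefSeq promoter windows of build GRCm38.p6. ACGTG also lies inside the E-box CACGTG, which other factors bind. Windows were found for 35 members (not for Slc2a3, Epas1, Bnip3l and Ndrg1), and 32 of the 35 held a match, against 50.8% of 11473 array genes with a window. A match stood in 14 of 16 members that were called higher after OVA and in 18 of 19 that were not called, so the called and uncalled members held it in like shares. The 50 windows of members had a median of 60.4% G and C, against 57.2% in the 14256 windows of array genes. Fbp1, Tpi1 and Gpi1 held no match in their windows, which says only that these letters are absent there. The stretches below run 5′ to 3′ on the gene's strand, with each match in capitals; the first 7 are from members called higher and the last 2, from Slc16a3 and Bnip3, are from members that were not called.
Egln3, chr12:54204087-54204115, minus strand: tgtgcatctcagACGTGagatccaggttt
Egln1, chr8:124949306-124949392, minus strand: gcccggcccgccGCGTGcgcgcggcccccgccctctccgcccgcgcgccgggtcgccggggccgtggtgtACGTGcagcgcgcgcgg
Higd1a, chr9:121857846-121857878, minus strand: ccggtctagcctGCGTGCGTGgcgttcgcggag
Pfkfb3, chr2:11553973-11554001, minus strand: ctccgcgccgtgACGTGccaagctgtgac
Pdk1, chr2:71873134-71873162, plus strand: ccgcctacatggGCGTGtctttaaccagg
Pgk1, chrX:106186938-106186985, plus strand: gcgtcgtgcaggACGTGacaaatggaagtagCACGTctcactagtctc
Ddit4, chr10:59951869-59951969, minus strand: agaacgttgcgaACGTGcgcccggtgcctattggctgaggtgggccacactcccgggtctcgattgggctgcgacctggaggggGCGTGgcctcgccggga
Slc16a3, chr11:120949028-120949066, plus strand: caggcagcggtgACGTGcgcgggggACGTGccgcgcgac
Bnip3, chr7:138909525-138909635, minus strand: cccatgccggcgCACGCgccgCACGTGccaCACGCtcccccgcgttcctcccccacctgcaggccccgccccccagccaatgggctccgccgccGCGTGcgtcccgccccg
The single match of Egln3 began at -229 from the start and the pair in Slc16a3 at -27 and -14.

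Levels are log2 values after robust multi-array averaging (RMA), so a difference of 1 is 2-fold. Each difference is the OVA mean less the saline mean, given with its standard error (SE). Called genes are those with a limma adjusted p under 0.05, with Benjamini-Hochberg adjustment across the 18214 genes. The 7 libraries had medians of 6.47 to 6.59 over all probe sets, and negative control probe sets had medians of 5.86 to 5.95 in saline and 6.04 to 6.17 in OVA. Positive and negative controls were separated less in saline 1 and 2 (area under the curve 0.81 and 0.80) than in saline 3 and 4 (0.843 and 0.845), and OVA lay between 0.83 and 0.852. Correlations across genes were 0.974 to 0.99 within saline, 0.99 to 0.994 within OVA and 0.956 to 0.979 between groups. Of 12 eosinophil markers 3 were called higher and 2 lower, and their mean level was 10.41 to 10.65 in saline and 10.64 to 10.94 in OVA. Ccr3 was 11.97 ± 0.06 (SD, n = 4) in saline and 11.84 ± 0.12 (n = 3) in OVA and Prg2 11.83 ± 0.26 and 13.02 ± 0.13, while Epx was low in saline (6.57 ± 0.09) and 9.26 ± 0.46 in OVA. The granule ribonucleases Ear1 (difference -0.62, SE 0.15; limma adjusted p = 0.0413) and Ear2 (-0.48, SE 0.12; 0.0458) fell, and Prg3 (-0.57, SE 0.19; 0.128) lay below saline in every OVA library without being called. Of 22 alveolar macrophage markers 9 were called higher and 1 lower, Ear1, which is also on the eosinophil list. The mean level of the 22 was 6.68 to 6.91 in saline and 7.64 to 8.09 in OVA. The largest rises on that list were those of Chil3, listed as Chi3l3 (6.26 ± 0.39 in saline, 12.47 ± 0.46 in OVA), Car4 (6.42 ± 0.47 and 11.77 ± 0.19) and Ctsk (6.14 ± 0.31 and 9.05 ± 0.68), followed by Atp6v0d2, Itgax and Mrc1 (differences 2.27, 2.07 and 2.06). Marco (6.10 ± 0.20 and 5.91 ± 0.21) and Mertk (5.64 ± 0.19 and 5.71 ± 0.29), of the same list, lay near the negative controls in both groups. Sftpc, an alveolar epithelial transcript, was 8.15 ± 1.26 in saline and 10.67 ± 0.63 in OVA. Of 11 epithelial markers 2 were called higher, as were 2 of 10 neutrophil markers. Of 6 erythroid markers 0 were called, but 0 had a positive difference. In 4 of the 6 every OVA library lay below saline, against 8.58% of all genes. The globin Hbb-b1 was 13.04 ± 0.28 in saline and 12.27 ± 0.78 in OVA, and Hba-a1 was 11.94 ± 0.39 and 10.94 ± 0.71. Whether the transcripts of these lists came from other cells or from the eosinophils themselves was not tested. The part of other cells in the differences below was not tested either. In sorted samples a changed share of a cell type, a changed RNA content per cell and changed expression within eosinophils cannot be told apart.

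Of the 39 measured members, 17 were called higher and 0 lower after OVA. The same test called 5.27% of all genes higher and 1.16% lower, or 959 and 212 genes; after a second quantile normalization the counts were 928 and 507, and after cyclic loess 1108 and 473. Among the members, 12 were then called higher and 1 lower after the second quantile normalization, 13 higher and 0 lower after cyclic loess, and 22 higher and 0 lower with array weights. The median difference of the members was 0.34, and that of all genes -0.07. At an unadjusted p under 0.05, 2 members were lower (Slc16a3 and Adm). In 23 members every OVA library lay above every saline library and in 3 every one lay below, against 11% and 8.58% of all genes. Of the 17 called members, 10 differed by 2-fold or more. None of the 39 had a mean over the 7 libraries under the negative control median of 5.98. The count called higher was 10, 10 and 11 when OVA 1, OVA 2 or OVA 3 was left out. Over all genes it was then 581, 431 and 373. With 1 saline library left out, 15 to 17 members and 696 to 1219 of all genes were called higher.

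**Figure D1:**
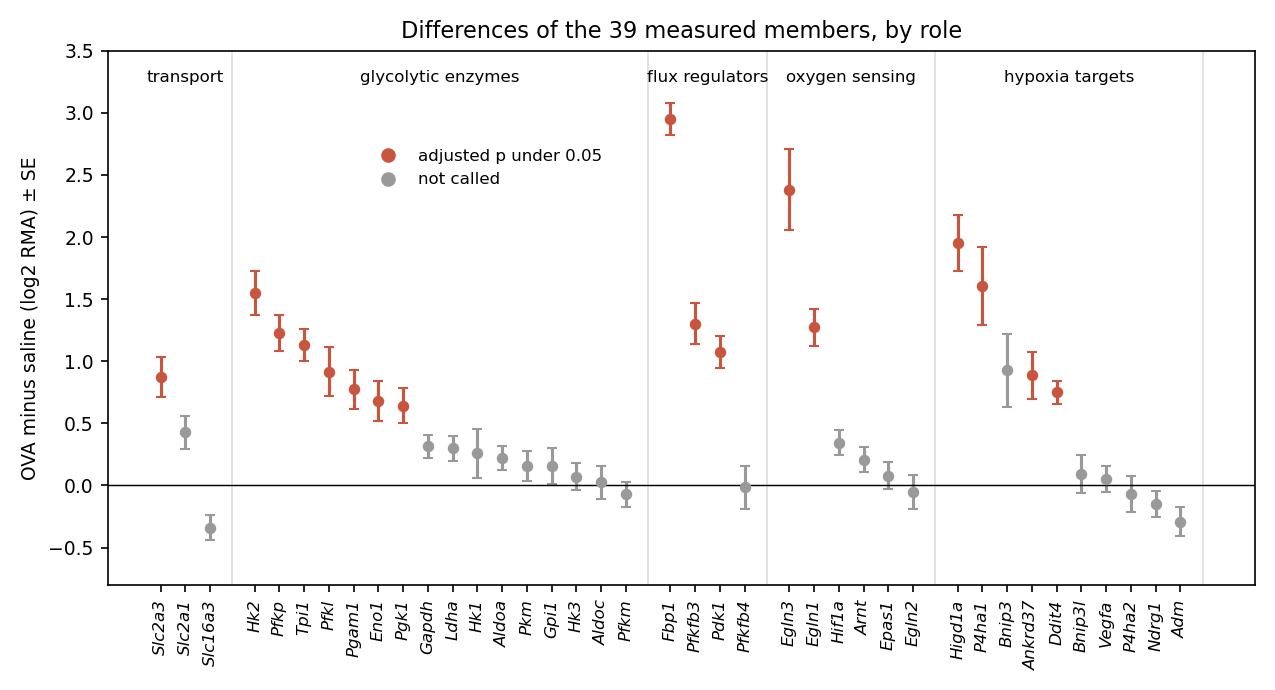
Difference between OVA and saline in log2 RMA (vertical axis, points with SE bars) for each of the 39 measured members, grouped by role along the horizontal axis. Red points are the 17 members called at an adjusted p under 0.05, all above 0; grey points were not called.

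Glucose enters the cell through Slc2a1 and Slc2a3, and lactate leaves through Slc16a3; of these transporters only Slc2a3 passed the test. Slc2a3, a high-affinity glucose transporter, was 9.89, 9.34, 9.23 and 9.70 in saline 1 to 4 and 10.48, 10.42 and 10.34 in OVA 1 to 3. All OVA libraries lay above the highest saline library, and Slc2a3 rose by 0.87 (SE 0.16; limma adjusted p = 0.0128). Without OVA 1, OVA 2 or OVA 3 it was not called by limma (adjusted p = 0.06, 0.0641 and 0.0572). Slc2a1, the general glucose transporter, was 11.75, 11.31, 11.53 and 11.33 in saline and 12.02, 11.95 and 11.75 in OVA. Its lowest OVA library equalled its highest saline library, with a difference of 0.43 (SE 0.13; limma adjusted p = 0.108). Slc16a3, which exports lactate and is known as a HIF target, ran the other way, at 11.79, 11.59, 11.65 and 11.70 in saline and 11.29, 11.45 and 11.29 in OVA. Every OVA library was below every saline library, and the difference of -0.34 (SE 0.10) was not called (limma adjusted p = 0.0901). It was called lower when the values were quantile normalized again (-0.39, limma adjusted p = 0.0478).

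At the first step, 1 hexokinase of the 3 was called. Hk2, the inducible form bound to mitochondria, was 7.66, 6.97, 7.58 and 7.16 in saline and 9.08, 8.82 and 8.78 in OVA. The lowest OVA library lay more than 1 log2 unit above the highest saline library, and Hk2 rose by 1.55 (SE 0.18), or 2.93-fold (limma adjusted p = 0.00123). Hk1, the form found in most tissues, was 7.92, 7.72, 8.26 and 8.57 in saline and 8.13, 8.53 and 8.47 in OVA. Its groups overlapped, with saline 3 and 4 at the level of OVA and saline 1 and 2 below it (difference 0.26, SE 0.20; limma adjusted p = 0.454). Hk1 was called higher when saline 3 and 4 were left out together (0.56, limma adjusted p = 0.0382), and with saline 1 and 2 left out its difference was -0.04. Hk3, a form of myeloid cells, was 6.93, 7.20, 7.07 and 7.16 in saline and 7.09, 7.12 and 7.27 in OVA and overlapped (difference 0.07, SE 0.11).

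The phosphofructokinases, which commit sugar to glycolysis, rose in their platelet (Pfkp) and liver (Pfkl) forms. Pfkp was 8.51, 8.02, 8.41 and 8.61 in saline and 9.63, 9.55 and 9.66 in OVA. The OVA libraries lay close together and all above saline, and Pfkp rose by 1.23 (SE 0.14; limma adjusted p = 0.00137). Pfkl was 8.26, 8.12, 7.44 and 7.62 in saline and 8.85, 8.83 and 8.65 in OVA, a rise of 0.92 (SE 0.19; limma adjusted p = 0.0241). Saline 1 and 2 stood between saline 3 and 4 and the OVA libraries, and the difference was 0.59 against saline 1 and 2 alone and 1.25 against saline 3 and 4 alone. Pfkl was not called by limma without OVA 1, OVA 2 or OVA 3 (adjusted p = 0.0912, 0.109 and 0.0832), nor after a second quantile normalization (0.145) or cyclic loess (0.1). The muscle form Pfkm was low, at 6.47, 6.29, 6.35 and 6.26 in saline and 6.26, 6.29 and 6.26 in OVA, and overlapped (difference -0.07, SE 0.10).

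Further down the pathway, Tpi1, Pgk1, Pgam1 and Eno1 rose. Tpi1, which interconverts the triose phosphates, was 10.20, 9.86, 10.01 and 9.84 in saline and 11.24, 11.15 and 10.94 in OVA, with no overlap. It rose by 1.13 (SE 0.13), or 2.19-fold (limma adjusted p = 0.00106). Pgk1, the first enzyme of the pathway that makes ATP, was 11.78, 11.72, 11.39 and 11.41 in saline and 12.38, 12.25 and 12.02 in OVA. Saline 1 and 2 were above saline 3 and 4 and below all OVA libraries, and Pgk1 rose by 0.64 (SE 0.14; limma adjusted p = 0.0274). Pgam1, a mutase, was 9.31, 9.0, 8.95 and 8.74 in saline and 9.82, 9.96 and 9.54 in OVA, a rise of 0.77 (SE 0.15; limma adjusted p = 0.0182). Eno1, the enolase that makes phosphoenolpyruvate, was 10.61, 9.98, 10.06 and 10.38 in saline and 10.96, 11.03 and 10.82 in OVA, a rise of 0.68 (SE 0.16; limma adjusted p = 0.0355). The groups of Pgam1 and Eno1 did not overlap. These 3 genes have near-identical copies, and each has 3 probe sets, whose differences ran from 0.59 to 0.64 for Pgk1, from 0.77 to 0.97 for Pgam1 and from 0.50 to 0.68 for Eno1, so the values are uncertain, although the annotation flags none of them for cross-hybridisation. Pgk1 was not called by limma without saline 3, OVA 1, OVA 2 or OVA 3 (adjusted p = 0.06, 0.108, 0.121 and 0.0508), Pgam1 not without OVA 1 or OVA 2 (0.0745 and 0.101), and Eno1 not without saline 2, saline 3, OVA 1, OVA 2 or OVA 3 (0.0589, 0.0759, 0.111, 0.155 and 0.102). A second quantile normalization also ended the calls of Pgk1, Pgam1 and Eno1 (0.072, 0.138 and 0.0635), as did cyclic loess (0.0673, 0.102 and 0.0582).

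Gapdh, Aldoa and Ldha had every OVA library above every saline library but were not called. Gapdh, the dehydrogenase often used as a reference gene, was 12.71, 12.64, 12.61 and 12.67 in saline and 12.96, 13.01 and 12.95 in OVA. The gap between the groups was wider than either group's range, but the difference of 0.32 (SE 0.09) was small and limma gave an adjusted p of 0.0806. Gapdh was called under 5 of 19 alternatives, among them a variance trend with robust moderation (limma adjusted p = 0.0141), and its 17 probe sets, of a gene with many copies, differed by 0.32 to 0.46. Aldoa, the aldolase of most tissues, differed by 0.22 (SE 0.10; limma adjusted p = 0.239), with 11.94, 11.75, 11.81 and 11.88 in saline and 12, 12.11 and 12.09 in OVA. Ldha, which turns pyruvate into lactate, differed by 0.30 (SE 0.10; limma adjusted p = 0.131), with 11.29, 11.04, 11.08 and 11.14 in saline and 11.41, 11.45 and 11.45 in OVA. Aldoc (difference 0.03), Gpi1 (0.16) and the pyruvate kinase Pkm, listed as Pkm2 (0.16), overlapped between groups and were not called.

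**Figure D2:**
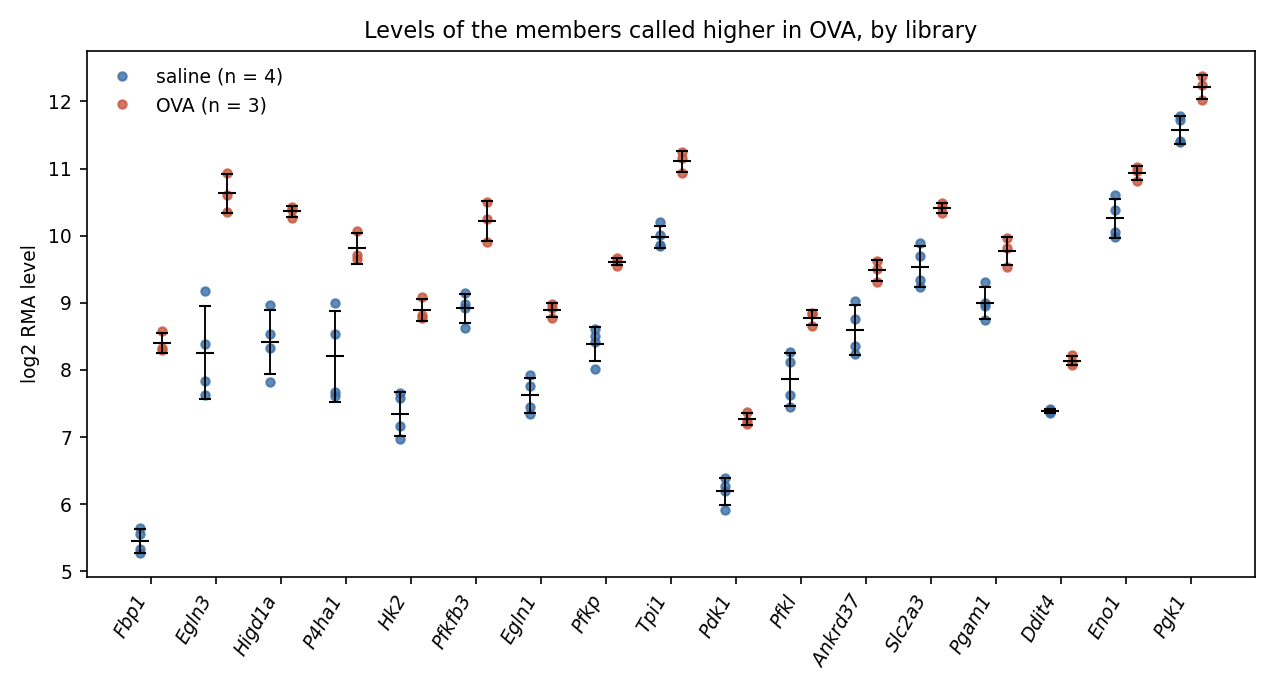
Level in log2 RMA (vertical axis) of each library for the 17 members called higher, ordered by the size of the difference, with saline in blue (n = 4) and OVA in red (n = 3); bars are the mean ± SD. In each gene all 3 OVA points lie above the 4 saline points, and the saline points of Egln3, P4ha1 and Higd1a are spread the widest.

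Of the 4 genes that steer the flux, Fbp1, Pfkfb3 and Pdk1 rose and Pfkfb4 was not called. Fbp1, fructose-1,6-bisphosphatase, which runs the phosphofructokinase step backwards in gluconeogenesis, was 5.55, 5.65, 5.27 and 5.33 in saline and 8.33, 8.30 and 8.58 in OVA. It rose by 2.95 (SE 0.13; limma adjusted p = 3.02e-06), ranked 8 of all genes by p, and its saline levels lay under the negative control median, so the size of the rise is uncertain. Pfkfb3, which makes fructose-2,6-bisphosphate, an activator of phosphofructokinase and inhibitor of Fbp1, was 9.15, 8.62, 8.92 and 8.98 in saline and 10.50, 10.25 and 9.91 in OVA. The groups were clearly apart and Pfkfb3 rose by 1.30 (SE 0.17; limma adjusted p = 0.00215). Its relative Pfkfb4, known as a HIF target, was 6.73, 6.29, 6.69 and 6.06 in saline and 6.55, 6.31 and 6.42 in OVA, with no difference in mean beyond the spread (-0.02, SE 0.17). Pdk1, the kinase that holds pyruvate out of mitochondria by inhibiting pyruvate dehydrogenase, was 6.39, 5.92, 6.19 and 6.27 in saline and 7.24, 7.37 and 7.19 in OVA. Every OVA library was higher, and Pdk1 rose by 1.07 (SE 0.13), or 2.11-fold (limma adjusted p = 0.00148). Outside the members, the related kinase Pdk3 rose from 5.72 ± 0.46 to 8.41 ± 0.15, a difference of 2.69 (SE 0.22; limma adjusted p = 0.000174); its saline mean lay under the negative control median, so the size of the rise is uncertain.

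Among the oxygen sensors, Egln3 and Egln1 rose and Egln2 was not called. Egln3, a prolyl hydroxylase that is itself induced by HIF, was 9.17, 8.39, 7.62 and 7.83 in saline and 10.94, 10.60 and 10.36 in OVA. The OVA libraries were all higher by more than 1 log2 unit, but saline itself was spread over more than 1 log2 unit, with saline 1 the highest. Egln3 rose by 2.38 (SE 0.33), or 5.21-fold (limma adjusted p = 0.00304). Egln1, the main oxygen sensor of most cells, was 7.76, 7.35, 7.45 and 7.92 in saline and 8.92, 8.98 and 8.78 in OVA. It rose by 1.27 (SE 0.15; limma adjusted p = 0.00137), with no overlap between the groups. Egln2, the form least tied to HIF induction, was 8.17, 7.88, 8.43 and 8.27 in saline and 8.18, 8.15 and 8.08 in OVA, inside the saline range (difference -0.05, SE 0.13).

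The transcription factor subunits themselves were not called. Hif1a was 11.38, 11.37, 11.45 and 11.42 in saline and 11.70, 11.88 and 11.67 in OVA, with no overlap and a difference of 0.34 (SE 0.10; limma adjusted p = 0.0775). It was called with array weights (0.41, limma adjusted p = 0.0158) and with a variance trend (adjusted p = 0.0458). Arnt, its partner, was 8.62, 8.75, 8.75 and 8.59 in saline and 8.83, 8.86 and 8.97 in OVA, a difference of 0.21 (SE 0.10; limma adjusted p = 0.266). Epas1, which encodes HIF-2 alpha and is high in endothelium, was 6.61 to 6.87 in saline and 6.69 to 6.90 in OVA and overlapped. HIF activity is set mainly by protein stability, which these data do not measure.

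Of 10 known targets of the hypoxia response, Higd1a, P4ha1, Ankrd37 and Ddit4 rose and 6 were not called. Higd1a, a mitochondrial inner membrane protein induced by hypoxia, was 8.53, 7.82, 8.33 and 8.97 in saline and 10.43, 10.39 and 10.27 in OVA. The OVA libraries were close together and all above saline, and Higd1a rose by 1.95 (SE 0.23), or 3.87-fold (limma adjusted p = 0.00126). Its other probe set also gave 1.95, with 8.46, 8.03, 8.02 and 8.35 in saline and 10.48, 9.94 and 10.08 in OVA. P4ha1, the catalytic subunit of the collagen prolyl hydroxylase, was 9.0, 8.53, 7.67 and 7.61 in saline and 10.07, 9.71 and 9.65 in OVA. Saline 1 and 2 were above saline 3 and 4, and P4ha1 rose by 1.61 (SE 0.32; limma adjusted p = 0.0167). It was not called by limma without OVA 1, OVA 2 or OVA 3 (adjusted p = 0.0768, 0.0649 and 0.07), after a second quantile normalization (0.0618) or after cyclic loess (0.0521), and its difference was 1.04 against saline 1 and 2 alone. Ankrd37, an ankyrin repeat protein, was 8.76, 8.36, 8.23 and 9.03 in saline and 9.63, 9.31 and 9.51 in OVA, a rise of 0.89 (SE 0.19; limma adjusted p = 0.0251). Its groups did not overlap, but it was not called by limma without OVA 1, OVA 2 or OVA 3 (adjusted p = 0.1, 0.0649 and 0.116), without saline 1 and 2 together (0.0686) or after a second quantile normalization (0.0541). Ddit4, an inhibitor of mTOR signalling induced by several stresses, was 7.41, 7.37, 7.36 and 7.42 in saline and 8.12, 8.22 and 8.08 in OVA. Both groups were tight, and Ddit4 rose by 0.75 (SE 0.09; limma adjusted p = 0.00196).

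Bnip3, a mitophagy receptor, was 9.19, 9.15, 8.35 and 7.96 in saline and 9.86, 9.29 and 9.62 in OVA. OVA 2 lay just above saline 1, and the difference of 0.93 (SE 0.29) was not called (limma adjusted p = 0.109). It was 1.44 and called with saline 1 and 2 left out (limma adjusted p = 0.00539) and 0.42 and not called with saline 3 and 4 left out (0.111). Its relative Bnip3l overlapped between groups (difference 0.09), and Vegfa, the angiogenic growth factor and a classical HIF target, stayed between 11.11 and 11.33 in all 7 libraries. The collagen hydroxylase subunit P4ha2 was near the negative controls, at 5.99, 6.27, 6.16 and 5.79 in saline and 6.18, 5.75 and 6.02 in OVA, and overlapped (difference -0.07, SE 0.15). Adm, the vasodilator adrenomedullin, was 6.16, 5.98, 6.30 and 5.98 in saline and 5.91, 5.83 and 5.70 in OVA, wholly below saline (difference -0.29, SE 0.12; limma adjusted p = 0.199). Its OVA values lay under the negative control medians of their group and its saline values close to theirs, so neither the direction nor the size of this difference can be read from levels above background. Ndrg1, a stress response gene, was 7.07, 7.12, 7.05 and 7.32 in saline and 6.96, 6.99 and 7.03 in OVA (difference -0.15, SE 0.10; limma adjusted p = 0.423). These 2 genes, like Slc16a3, had every OVA library below saline without passing the test.

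Unequal change of related genes was tested within libraries, as the log2 ratio of 2 genes of a family, by a 2-sided exact permutation test with 35 arrangements. The 15 pairs were adjusted together, and 0 passed an adjusted p under 0.05. With 35 arrangements, a pair could not pass this adjustment on its own, however large its shift. The smallest exact permutation p that this design can give, 0.0286, was reached by 7 pairs and became 0.0612. In these 7 the groups did not overlap. The ratio of Egln1 to Egln2 was -0.57 ± 0.28 in saline (SD, n = 4) and 0.76 ± 0.07 in OVA (n = 3), a shift of 1.32 (SE 0.15). The ratio of Egln3 to Egln2 shifted by 2.43 (SE 0.44), Hk2 to Hk1 by 1.29 (SE 0.32) and Hk2 to Hk3 by 1.48 (SE 0.26). For phosphofructokinase, Pfkp to Pfkm shifted by 1.30 (SE 0.13) and Pfkm to Pfkl by -0.99 (SE 0.19), and Pfkfb4 to Pfkfb3 shifted by -1.32 (SE 0.22). Pfkp and Pfkl did not shift against each other beyond the spread (0.31, SE 0.28; exact permutation p = 0.4), nor did Hk1 and Hk3 (0.19, SE 0.22; p = 0.514).

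The saline libraries differed among themselves in several members along the same line. Egln3 averaged 8.78 in saline 1 and 2 and 7.72 in saline 3 and 4, P4ha1 8.77 and 7.64, Bnip3 9.17 and 8.15 and Pfkl 8.19 and 7.53. Hk1 was arranged the other way, with 7.82 and 8.41, and Ddit4 was 7.39 in both pairs. These genes were picked after their values were seen, and the control separation given above moved with the same pairs. So did some transcripts of other cells, also picked after their values were seen. In saline 1 to 4, the neutrophil and monocyte gene S100a8 was 7.38, 7.09, 9.97 and 9.71 and S100a9 was 9.63, 9.71, 11.42 and 11.35. The lysozyme gene Lyzs was 6.80, 6.49, 9.23 and 8.76 and the T cell gene Cd3d 8.51, 8.87, 9.80 and 9.65. All of these were higher in saline 3 and 4, but other genes of the same marker lists ran the other way. Among them were Camp (6.82, 6.57, 6.33 and 6.13) and Ngp (7.19, 6.88, 6.71 and 6.38) of the neutrophil list. Cx3cr1 (7.77, 7.64, 7.17 and 6.92) and the T cell gene Cd4 (6.59, 6.37, 6.13 and 6.08) did the same. Camp and Cd4 lay near the negative controls, which limits what their order shows. The negative control medians were themselves higher in saline 1 and 2 (5.935 and 5.95) than in saline 3 and 4 (5.86 and 5.875). The part of other cells in the members' values was not tested. Against saline 1 and 2 alone the OVA libraries were higher by 1.85 in Egln3, and against saline 3 and 4 alone by 2.91. In all, 33 of the 39 members had a larger SD in saline than in OVA, as had 70.5% of all genes. With saline 1 and 2 left out, 17 members and 817 of all genes were called higher. Without saline 3 and 4 the counts were 18 and 2185.

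**Figure D3:**
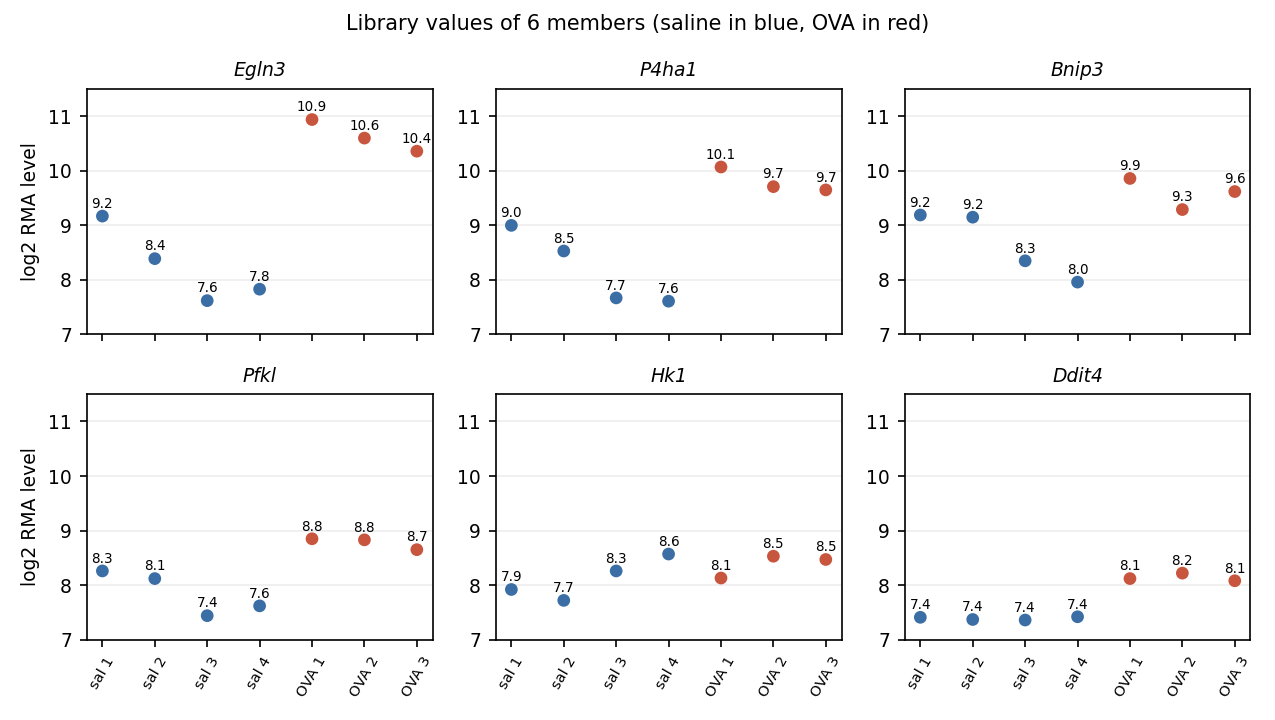
Level in log2 RMA (vertical axis, from 7) in each of the 7 libraries (horizontal axis; sal, saline) for 6 members chosen after seeing their values, with saline in blue and OVA in red. Egln3, P4ha1, Bnip3 and Pfkl are higher in saline 1 and 2 than in saline 3 and 4, Hk1 is lower there, and Ddit4 is level within saline.

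Other genes of sugar metabolism give the setting of these changes. Of 16 genes that store or release glycogen, 7 were called higher and 0 lower, with a median difference of 0.46. They included the liver phosphorylase Pygl, from 10.75 ± 0.18 to 11.58 ± 0.18 (difference 0.83, SE 0.13; limma adjusted p = 0.00645), the phosphoglucomutase Pgm2 (0.78) and the primer protein gene Gyg (0.77). Of 10 pentose phosphate genes Prps1 (0.98) and Rpia (0.82) rose. A list of 13 genes covered the entry and use of pyruvate in mitochondria, with the kinases that hold it back. Of these, the kinase Pdk3 and Pdhx (0.57) were called higher. The other isoforms and transporters of glycolysis, 27 genes, held 2 called, Pfkfb2 (0.75) and the ADP-dependent glucokinase Adpgk (0.67), with a median of -0.09. None of 6 further gluconeogenesis genes was called by limma (5 with negative differences, median -0.14), unlike Fbp1.

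Of 53 further hypoxia genes, 30 had positive differences, with a median of 0.12 over the list. Limma called 0 of them lower and, against 5.27% of all genes, 11 of them (20.8%) higher. The largest were the mitochondrial protein gene Fam162a, listed as 2310056P07Rik (1.71, SE 0.14; limma adjusted p = 0.000168), the oxidase Ero1a, listed as Ero1l (1.34, SE 0.23), the cytokine Mif (1.24, SE 0.13) and the histone demethylase Kdm3a, listed as Jmjd1a (0.92, SE 0.12). P4hb, the disulfide isomerase that is the partner subunit of P4ha1, was picked after its values were seen and rose from 10.27 ± 0.06 to 11.12 ± 0.03 (limma adjusted p = 0.000941). The respiratory chain list, 82 genes taken by the start of their symbols, also holds ATP synthase genes. Of the 82, 3 were called higher, or 3.66%, and 0 lower. Their median difference was 0.18, and 67 had positive differences, against 6918 of all 18214 genes. The 3 were the complex I genes Ndufa5 (0.78), Ndufs3 (0.76) and Ndufa12 (0.62). The shares of the lists were not tested against each other.

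**Figure D4:**
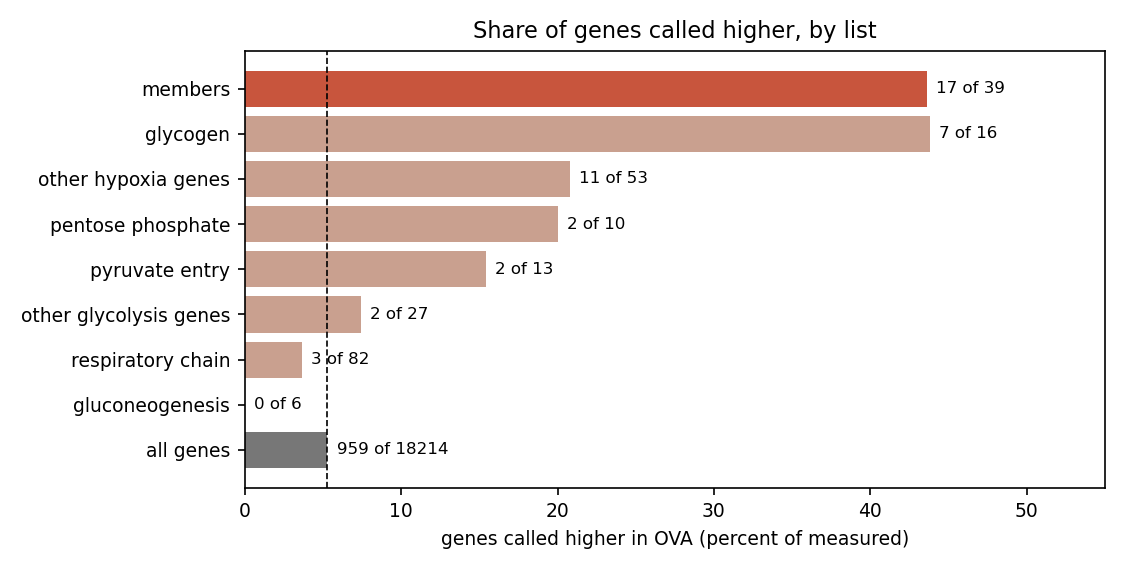
Percent of measured genes called higher after OVA (horizontal axis) for the members, 7 lists of related genes and all genes, with the counts beside the bars and the share over all genes, 5.27%, as a dashed line. The members (17 of 39) and the glycogen list (7 of 16) have the longest bars, and the respiratory chain (3 of 82) and gluconeogenesis (0 of 6) lists are below the line.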

How the data were processed

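The authors deposited log2 expression values made by RMA, per the submitters' processing notes, which name no version. Column names in the annotated table identify the array as mouse gene 1.0 ST. RNA was amplified and labelled with NuGEN kits, per the labels' protocols. That table supplied gene symbols; its 7 value columns match no sample label and were not used. Of 35557 probe sets 19757 had a symbol, which gave 18214 genes with no filter on dim ones. Genes were compared genome-wide with limma 3.58.1 (R 4.3.3), using lmFit and eBayes and no covariate besides group. The number of arrays limits the precision. Named genes were all 40 members, with library values for called members and for those in a family pair with one or with no overlap, and up to 4 called genes per other list by size. Members and lists were chosen with earlier results of these data known. Of 387 list entries 377 were matched, by symbol, RefSeq accession or synonym, the respiratory chain genes by the start of their symbols. Ratio pairs used scipy 1.17.1. Alternatives are given in the closing section.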

Additional observations from a re-analysis of the deposited data

Results flagged for a closer look

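Among 39 members and 15 gene ratios, tested in the 4 saline libraries, 1 had a library far from the others by Dixon's test; chance flags about 5% of groups. Gpi1, the glucose phosphate isomerase, was 10.55 in saline 2 and 11 to 11.06 in the other saline libraries, a gap of 0.882 of the group's range. Its difference was 0.16 with all libraries (limma adjusted p = 0.521) and 0.04 without saline 2.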

How the results depend on the processing

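Of the 17 called members, 7 were called by limma under all 19 alternatives (Hk2, Pfkp, Tpi1, Pdk1, Fbp1, Egln1 and Ddit4), and 3 were lost only without variance moderation (Pfkfb3, Egln3 and Higd1a). The count of members called higher was 12 after a second quantile normalization, 13 after cyclic loess, 22 with array weights, 8 without moderation and 10 to 17 when 1 library was left out; 1 member, Slc16a3, was called lower after a second quantile normalization. Over all genes, calls higher and lower were 928 and 507 after that normalization; the lower calls were 473 with cyclic loess and 120 with median centring. They were 1648 and 677 with array weights, where OVA 2 had a weight of 5.00 and the other libraries 0.411 to 1.41, and 244 and 40 without moderation. Without saline 1 and 2 together 405 genes were called lower, and without saline 3 and 4 together 2185 higher and 985 lower. Leaving out 1 library gave 373 to 1219 higher and 67 to 269 lower. No called member changed direction; uncalled members near 0 changed sign 24 times, in 9 members. None of the 15 ratios passed after a second quantile normalization or with probe sets averaged. The labels do not say whether replicate numbers pair the libraries. The deviations of same-numbered libraries correlated at 0.27, -0.14 and 0.24, and those of other pairs between groups at -0.48 to 0.45. These values cannot decide it. With the replicate block 17 members were called higher, and 1357 genes higher and 316 lower. Of the uncalled members 7 were called under some alternative, among them Slc2a1, Ldha and Bnip3 with array weights (limma adjusted p = 0.0222, 0.0321 and 0.0299). The causes of these shifts were not tested. Levels near the negative controls limit the size of any fold there.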
